A study of Mus musculus with 22 samples.

Results

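The keratin genes encode the intermediate filament proteins of epithelia and of hair, and they were followed here across 22 poly(A) RNA libraries from mouse. The members were all protein-coding rows whose symbol is Krt followed by a number and at most 1 lower-case letter, which gave 55 genes among 20674 protein-coding rows and 24911 rows in all. The keratin-associated protein genes (Krtap), which share the first letters of the name, were not members. The libraries came from back skin, 3 brain regions (putamen, medulla oblongata and sensorimotor cortex), basophils, the B lymphoma line CH12 (clone bc5), 7 primary B-cell populations and 9 CD4+ T-cell populations. The B-cell libraries were unstimulated splenic B cells and 6 activated cultures, of which aCD40+IL4 and aBCD180 had no LPS while the other 4 had LPS alone or with IL4, IL21 or a-d-dextran. The B cells came from the spleen of C57BL/6J mice. The T-cell libraries were follicular helper (Tfh), follicular regulatory (Tfr), non-Tfh and total CD4+ T cells, each as an unmarked library and as a library labelled MUT, and CD4+ T cells activated with ConA. Tfr cells were sorted as CD4+CD44+CXCR5+PD1+CD25+ and non-Tfh cells as CD4+CD44+CXCR5-PD1-CD25-. What MUT stands for, the age and sex of the mice and the hair cycle stage of the skin were not given in the sources used here, and CH12 is a single clone.

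Keratins form filaments as obligate pairs of an acidic type I and a basic type II protein, and each epithelial layer has its own pairs. In skin, Krt5 and Krt14 mark the dividing basal layer, Krt1 and Krt10 the layers above it, and separate sets of keratins build the hair shaft and the inner root sheath, the sleeve that moulds the growing hair. Krt8 and Krt18 are the keratins of single-layered epithelia, and lymphocytes and neurons build their cytoplasmic filaments from vimentin or neurofilament proteins rather than from keratins.

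Each of the 22 groups was a single library, so no group had replicates, and tests were possible only over sets of related libraries. The p-values then measure the spread between these libraries, which differ in population and stimulus, and nothing in the labels says which came from separate animals. Levels are TPM (transcripts per 1000000, scaled by gene length) as deposited, and they sum to 1000000 over the protein-coding rows of each library. None of the 4237 other rows had a count above 0 in any library. Total expected counts per library ran from 30805597 to 147925523 with a median of 46188141, and back skin had 43879121. The labels held against markers: back skin had the keratinocyte genes Trp63 at 82.21 TPM and Col17a1 at 110.06 TPM, and also the muscle gene Acta1 at 1846.50 TPM and the fibroblast gene Col1a1 at 641.59 TPM, so it held more than epithelium. The 4 neuron genes summed to 2563.37 to 5760.34 TPM in the brain regions, and Cd79a, a B-cell gene, was at 535.60 to 3543.14 TPM in primary B cells. In such bulk samples, fewer cells of a type and less RNA per cell cannot be told apart.

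In back skin the keratins summed to 71816.80 TPM, which was 7.18% of protein-coding TPM, and 80.2% of this keratin total came from the 24 genes of the hair shaft and the inner root sheath. All 55 members were above 0 TPM. Of these, 47 had at least 1 TPM, 34 had at least 100 TPM and 19 had at least 1000 TPM. The 28 type I genes summed to 38385.72 TPM and the 27 type II genes to 33431.08 TPM, a ratio of 1.15. The epidermal compartments held far less, with 9.1% of keratin TPM in the basal set and 2.7% in the suprabasal set. These are levels in 1 library with no replicate check, and the intervals given below cover counting error only.

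**Figure D1:**
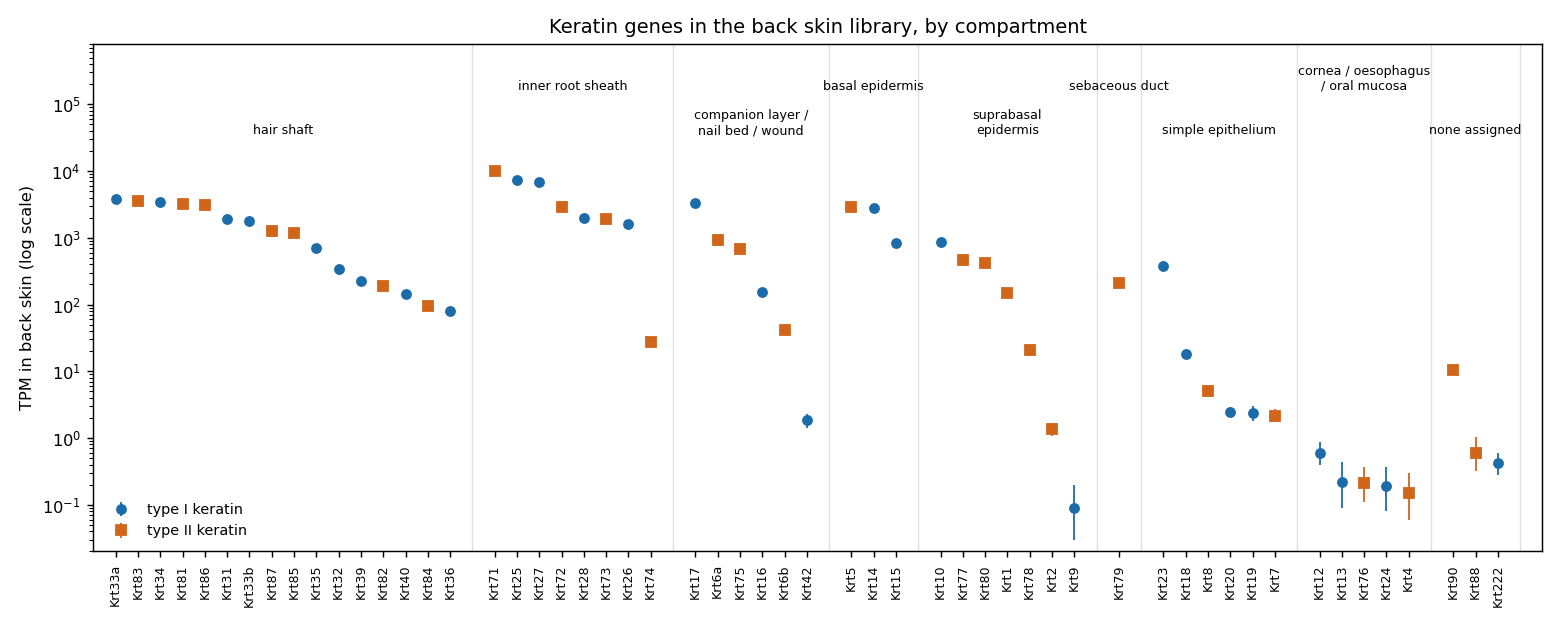
TPM of each of the 55 keratin genes in the single back skin library, on a log axis, grouped by compartment; circles are type I genes, squares type II genes and bars the 95% Poisson intervals of counting error. The 8 inner root sheath genes reach 10038.11 TPM, and the 5 genes of cornea, oesophagus and oral mucosa all lie below 1 TPM.

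The inner root sheath keratins made up 45.3% of keratin TPM, the highest share of any compartment. Krt71, the main type II keratin of that sheath, was at 10038.11 TPM and ranked 3 among all protein-coding genes by TPM. Its type I partners Krt25 and Krt27 were at 7256.35 and 6791.64 TPM and ranked 7 and 8. The sheath cuticle keratin Krt72 followed at 2919.94 TPM, then Krt28 at 1968.51 TPM, Krt73 at 1882.93 TPM and Krt26 at 1630.29 TPM. Krt74 was the exception at 27.17 TPM. The level of Krt71 was 1.38 times that of Krt25 (95% interval 1.38 to 1.39) and 1.48 times that of Krt27 (1.47 to 1.49).

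The hair shaft keratins made up 35.0% of keratin TPM, and all 16 were at or above 80.44 TPM. The 5 highest were Krt33a at 3790.20 TPM, Krt83 at 3599.34 TPM, Krt34 at 3450.59 TPM, Krt81 at 3181.92 TPM and Krt86 at 3141.88 TPM, all keratins of the shaft cortex. Krt31 was at 1913.62 TPM, Krt33b at 1779.92 TPM and Krt87 at 1284.18 TPM. Krt85 and Krt35, which appear earliest as matrix cells enter the shaft, were at 1194.33 and 692.91 TPM, below most of the cortex genes. The cuticle keratins Krt32, Krt82, Krt39 and Krt40 were lower again, at 342.51, 189.56, 221.71 and 143.82 TPM. Krt84 at 93.48 TPM and Krt36 at 80.44 TPM were the lowest. In this compartment the type I sum of 12415.72 TPM and the type II sum of 12684.69 TPM were nearly equal, at a ratio of 0.98.

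The promoters of 5 sheath and shaft genes are shown as examples, because these sets held most keratin TPM and differed in the short motifs they held. They were not picked by level alone. Krt72, at 2919.94 TPM above Krt31, is not printed, and its only motif was TATAAA on the other strand. The basal genes Krt5 and Krt14, also above Krt31, are not printed and held none of the motifs searched. RefSeq (GRCm38.p6) gave a promoter entry for 36 of the 55 members, and the 250 bases before the annotated start were searched on both strands for 5 short motifs. These were the TATA box with the letters TATAAA, the LEF/TCF core with CTTTGA, the core read by GATA factors with AGATAA, the AP-2 core with GCCNNNGGC and a posterior HOX core with CAATAAA. Each sequence below is on the minus strand of its chromosome and is printed 5′ to 3′ with motif letters in capitals: Krt25 at chr11:99322952-99323201, Krt27 at chr11:99351119-99351368, Krt71 at chr15:101743098-101743347, Krt31 at chr11:100050552-100050801 and Krt34 at chr11:100041555-100041804.
Krt25 promoter: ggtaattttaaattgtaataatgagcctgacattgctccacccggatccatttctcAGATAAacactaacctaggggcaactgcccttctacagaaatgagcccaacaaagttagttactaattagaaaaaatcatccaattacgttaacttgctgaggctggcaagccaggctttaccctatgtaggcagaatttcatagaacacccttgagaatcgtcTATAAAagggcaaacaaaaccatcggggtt
Krt27 promoter: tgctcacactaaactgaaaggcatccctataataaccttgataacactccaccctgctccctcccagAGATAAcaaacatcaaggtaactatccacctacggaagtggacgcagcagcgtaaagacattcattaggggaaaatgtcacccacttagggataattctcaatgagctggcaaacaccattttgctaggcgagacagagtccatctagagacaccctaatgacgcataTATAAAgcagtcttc
Krt71 promoter: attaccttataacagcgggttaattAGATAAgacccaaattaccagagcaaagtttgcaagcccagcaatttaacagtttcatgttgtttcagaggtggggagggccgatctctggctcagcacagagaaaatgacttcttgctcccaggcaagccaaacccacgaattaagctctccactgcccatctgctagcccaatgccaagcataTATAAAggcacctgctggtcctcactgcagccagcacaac
Krt31 promoter: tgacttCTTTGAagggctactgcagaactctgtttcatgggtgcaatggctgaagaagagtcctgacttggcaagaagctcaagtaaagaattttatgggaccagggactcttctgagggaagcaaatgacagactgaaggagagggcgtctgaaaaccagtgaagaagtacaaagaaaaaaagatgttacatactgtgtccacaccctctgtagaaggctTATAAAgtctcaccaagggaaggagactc
Krt34 promoter: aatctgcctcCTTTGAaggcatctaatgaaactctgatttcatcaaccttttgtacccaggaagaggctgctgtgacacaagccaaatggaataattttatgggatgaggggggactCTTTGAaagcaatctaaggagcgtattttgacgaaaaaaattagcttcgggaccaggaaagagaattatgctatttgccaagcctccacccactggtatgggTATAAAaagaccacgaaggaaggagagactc

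In these 5 promoters the TATAAA runs began 30, 15, 40, 29 and 31 bases before the start, for Krt25, Krt27, Krt71, Krt31 and Krt34 in that order. The AGATAA runs of Krt25, Krt27 and Krt71 began 194, 183 and 225 bases before it, and the CTTTGA runs began 244 bases before it in Krt31 and 240 and 133 bases before it in Krt34. TATAAA was found on either strand in 7 of 7 inner root sheath promoters, 6 of them in sense, and in 6 of 9 hair shaft promoters, 5 of them in sense. It was found in 47.2% of the 36 keratin promoters and in 11.3% of 19582 protein-coding promoters of the same length. In the sense direction and 40 to 20 bases before the start, it was found in 13 keratin promoters, or 36.1%, against 2.5% of all. AGATAA was in 4 of 7 sheath promoters and 0 of 9 shaft promoters, and 8.6% of all promoters held it. CTTTGA was in 1 of 7 sheath promoters and 5 of 9 shaft promoters, and 12.6% of all promoters held it. GCCNNNGGC was in 13.9% of keratin promoters against 16.9% of all, and CAATAAA in 0 of 36 against 3.4% of all. Motifs of different kinds overlapped in 1 keratin promoter. These matches describe letters and were not tested as binding sites.

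The companion layer, nail bed and wound-induced keratins held 7.2% of keratin TPM. Krt17, a type I keratin of the outer root sheath and of wounded epidermis, was at 3321.12 TPM and exceeded Krt14. Krt6a was at 937.92 TPM, Krt75, the companion layer keratin, at 684.57 TPM, Krt16 at 156.34 TPM, Krt6b at 41.28 TPM and the nail keratin Krt42 at 1.84 TPM. Krt6a stood at 6.00 times Krt16 (95% interval 5.84 to 6.16) and at 0.28 times Krt17 (0.28 to 0.29).

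The basal keratins were balanced and the suprabasal keratins were not. Krt5 was at 2932.59 TPM and Krt14 at 2746.68 TPM, a ratio of 1.07 (95% interval 1.06 to 1.08), and Krt15, a basal keratin also known from the hair bulge, was at 833.57 TPM. Above the basal layer, Krt10 was at 867.63 TPM and its partner Krt1 at 147.16 TPM, a ratio of type II to type I of 0.170 (0.166 to 0.173). Krt77, another type II suprabasal keratin, was at 463.82 TPM and Krt80 at 422.59 TPM, so Krt10 was closer to the sum of the 5 suprabasal type II genes, 1056.06 TPM, than to Krt1 alone. Krt78 was at 21.14 TPM. Krt2, a keratin of the uppermost living layers, was at 1.35 TPM, and the palm and sole keratin Krt9 at 0.09 TPM. Krt79, of the sebaceous duct and infundibulum, was at 207.10 TPM.

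The simple epithelial keratins held 0.6% of keratin TPM, nearly all of it Krt23 at 371.28 TPM. Krt18 was at 18.40 TPM and its partner Krt8 at 5.10 TPM, a ratio of 0.28 (95% interval 0.24 to 0.32). Krt20 at 2.46 TPM, Krt19 at 2.38 TPM and Krt7 at 2.17 TPM were lower. Krt8, Krt18 and Krt20 are also markers of Merkel cells, the touch receptors of the epidermis, whose regulator Atoh1 was at 0.04 TPM in this library. The cornea, oesophagus and oral mucosa set (Krt4, Krt12, Krt13, Krt24 and Krt76) summed to 1.36 TPM. Of the 3 genes with no compartment, Krt90 was at 10.49 TPM, Krt88 at 0.60 TPM and Krt222 at 0.42 TPM.

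The keratins that were high in skin lay in runs of neighbours. In GENCODE M21 (GRCm38, the mm10 build that the authors named), 54 of the 55 members were found by symbol, 27 on chromosome 11 between 99232761 and 100269871 and 27 on chromosome 15 between 101347444 and 102032027. Krt18 was the type I gene within the chromosome 15 cluster, and Krt85 was not matched. Krt25, Krt26, Krt27 and Krt28 lay within 59.4 kb (chr11:99315516-99374903) and held 24.6% of keratin TPM in back skin. Krt71, Krt74, Krt72 and Krt73 lay within 68.4 kb (chr15:101733949-101802346) and held 20.7%. The 7 hair shaft genes from Krt33a to Krt36 lay within 94.4 kb (chr11:100011195-100105626) and held 16.8%, and 6 type II shaft genes lay within 119.6 kb (chr15:101431038-101550667) and summed to 11490.36 TPM. Neighbours were not uniform: Krt88, inside the type II shaft run, was at 0.60 TPM, and Krt74, inside the sheath run, was at 27.17 TPM.

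**Figure D2:**
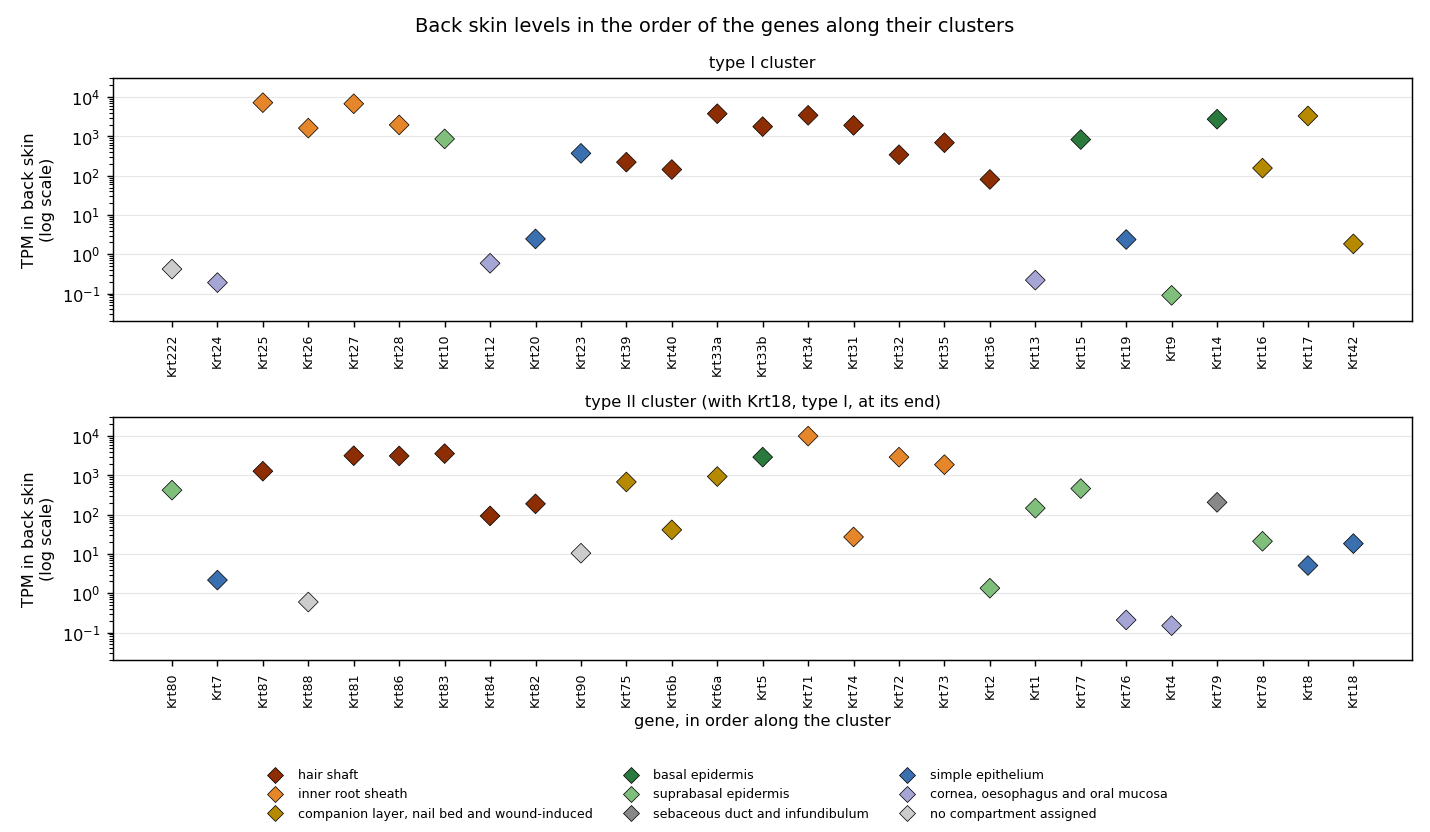
Back skin TPM (log axis) of the 54 keratin genes found in the annotation, in their order along the type I cluster (upper) and the type II cluster (lower); colours give the compartment. Inner root sheath and hair shaft genes form runs of neighbours, and Krt88 at 0.60 TPM and Krt74 at 27.17 TPM fall below the genes beside them.

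Several of these values are uncertain because the genes are near copies of each other. Of the 53 keratins with protein-coding transcripts in GENCODE M21, 17 shared more than 10% of their 50-base stretches (the read length) with another gene and 18 shared none. The shared part was 62.0% for Krt6a and 50.1% for Krt6b, mostly with each other, 43.5% for Krt81 and 43.3% for Krt86, also mostly with each other, 37.6% for Krt16, 36.9% for Krt87 and 33.1% for Krt34. The deposited estimates divide such reads by a model, and 70.1% of keratin counts above 0 lay within 1e-09 of a whole number against 86.1% over all genes. In addition, 12 members overlapped a gene on the other strand, and the strand setting of the counting was not given in the sources used here.

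With 1 skin library, a rule of size took the place of a test: log2(TPM + 1) at least 3 above every other library, and at least 10 TPM in skin. It was met by 40 of the 55 keratins, or 72.7%, against 2.62% of all protein-coding genes (541 of 20674). All 24 shaft and sheath genes, all 3 basal genes, 5 of 6 companion and wound-induced genes and 5 of 7 suprabasal genes met it, as did Krt79, Krt90 and, of the 6 simple keratins, Krt23. Just inside the limit were Krt90 with a log2 difference of 3.31 and Krt80 with 3.44, and just outside were Krt18 with 2.30 and Krt42 with 1.46. Under a difference of 2, Krt18 was gained and none was lost. Among related lists, 52 of the 54 Krtap genes, the matrix proteins that embed hair keratin, met the rule and summed to 111647.39 TPM, more than the keratins. Of the cornified envelope and desmosome genes 23 of 26 met it, of the hair follicle differentiation genes 11 of 20, of the epidermal regulators 6 of 12, and of the other intermediate filament genes 1 of 18.

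Outside skin, 27 of the 55 keratins reached 1 TPM in at least 1 library, and 8 reached 10 TPM: Krt8, Krt9, Krt10, Krt12, Krt17, Krt20, Krt80 and Krt222. Without the 3 B-cell cultures described next, 17 reached 1 TPM and the same number, 8, reached 10 TPM. For 7 genes a library other than skin was above skin: Krt8, Krt9, Krt19, Krt20 and Krt24 in putamen, Krt12 in cortex and Krt222 in CH12. For Krt24 these were 0.20 and 0.19 TPM, a difference within counting error. Over all 22 libraries, 50 keratins reached 1 TPM somewhere, and Krt4, Krt13, Krt24, Krt76 and Krt88 did not, with maxima from 0.15 to 0.60 TPM.

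**Figure D3:**
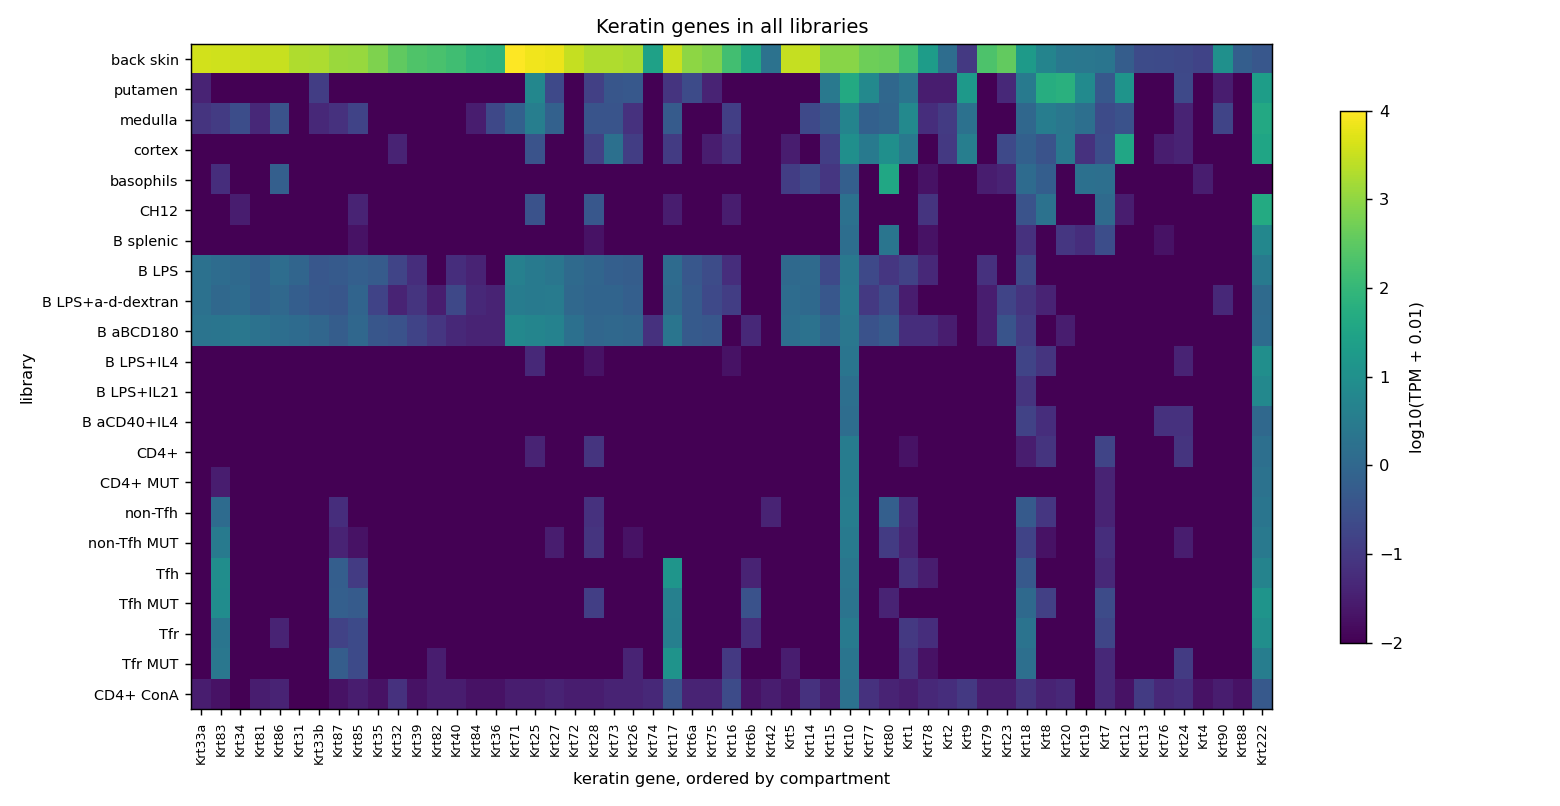
log10(TPM + 0.01) of the 55 keratin genes (columns, ordered by compartment and skin level) in the 22 libraries (rows). Back skin is high over most columns, 3 B-cell cultures (LPS, LPS+a-d-dextran and aBCD180) carry a faint copy of the skin pattern, and Krt10 and Krt222 are above 0 in most libraries.

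The B-cell cultures with LPS, LPS+a-d-dextran and aBCD180 carried low levels of nearly the whole skin set. Of the 34 keratins with at least 100 TPM in skin, 32, 34 and 33 were above 0 in these cultures, and their medians were 0.0377%, 0.0364% and 0.0585% of the skin level. Krt71 was at 4.19, 3.27 and 6.28 TPM, Krt25 at 2.79, 3.02 and 5.28 TPM and Krt27 at 2.28, 3.19 and 4.47 TPM. Krt33a was at 1.69, 1.69 and 2.02 TPM, Krt5 at 1.13, 1.28 and 1.48 TPM, and Krt14 at 1.17, 1.14 and 1.82 TPM. Across these 34 genes the levels followed the skin levels, with Pearson r on log10(TPM + 0.01) of 0.87, 0.90 and 0.92, given as a description since genes are not replicates. In the other cultures and sorted cells the median was 0, except 0.00176% in ConA-activated CD4+ T cells.

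Other skin genes stood at similar fractions in these 3 cultures. The medians of the Krtap genes were 0.0384%, 0.0451% and 0.0625% of skin, those of 19 cornified envelope and desmosome genes 0.0435%, 0.0517% and 0.0769%, and those of 4 skeletal muscle markers 0.0441%, 0.0511% and 0.0948%. Outside these cultures the Krtap median was 0 in every other library but ConA-activated CD4+ T cells, at 0.00149%. The other lists were less particular to these cultures. The muscle median was 0.0414% in ConA-activated cells and 0.0704% in CH12, and the cornified median was 0.0444% in basophils. Krt10 stood above the fraction in all 3, at 2.52, 2.95 and 2.42 TPM, and lay within its range of 1.39 to 3.45 TPM over the 16 lymphocyte libraries. The source of these counts was not tested. In the labels, the codes of these 3 cultures and of the aCD40+IL4 culture end in the same letter, whose meaning is not given, and the aCD40+IL4 culture had 1 of the 34 genes above 0. The muscle markers did not follow the keratins in that culture: their median was 0.605% of skin, above all 3 others, with Acta1 at 4.76 TPM and Ckm at 4.67 TPM.

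**Figure D4:**
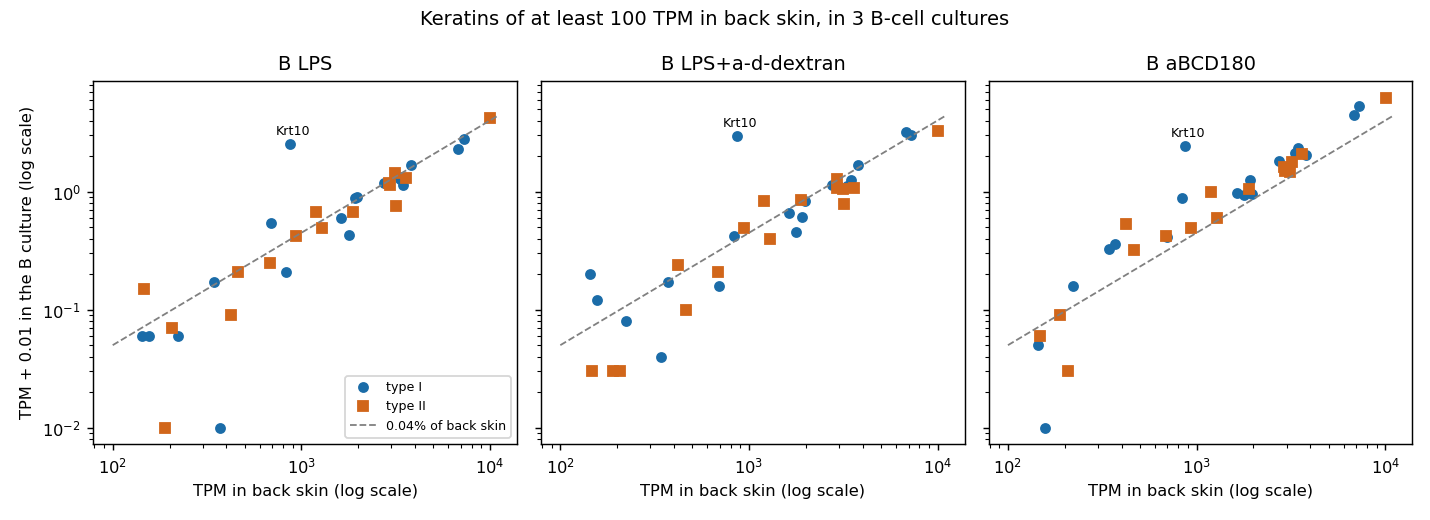
TPM + 0.01 in each of 3 B-cell cultures against TPM in back skin, both on log axes, for the 34 keratins with at least 100 TPM in skin (circles type I, squares type II); the dashed line marks 0.04% of the skin level. Most genes lie along the line in each culture, and Krt10 lies above it at 2.52, 2.95 and 2.42 TPM.

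ConA-activated CD4+ T cells, the deepest library, showed another pattern. There 51 of the 55 keratins were above 0, but 47 of these were at or below 0.1 TPM, including genes that were near 0 in skin such as Krt13 at 0.10 TPM and Krt9 at 0.09 TPM. Krt71 and Krt25, the highest in skin, were at 0.02 and 0.02 TPM, and the r with skin across the 34 genes was -0.14.

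The brain regions held keratins of simple epithelium and of suprabasal epidermis, each with its own regional pattern. Krt20, a keratin of intestinal and bladder lining, was at 64.24 TPM in putamen, 2.42 TPM in medulla and 2.50 TPM in cortex. Krt8 was at 54.76, 3.57 and 0.33 TPM in the same order, while its usual partner Krt18 was at 2.93, 1.02 and 0.68 TPM and Krt19 at 7.57, 1.57 and 0.06 TPM. Putamen was thus the highest of the 3 regions for these 4 simple keratins.

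Krt12, the corneal keratin, was highest in another region, with 34.80 TPM in cortex, 12.71 TPM in putamen and 0.31 TPM in medulla. Krt10 was at 43.70 TPM in putamen, 5.11 TPM in medulla and 9.91 TPM in cortex, and Krt9 at 17.42, 1.75 and 3.67 TPM. Krt1 was highest in medulla, at 6.67 TPM, against 2.05 TPM in putamen and 2.69 TPM in cortex. Krt77 was at 6.68, 0.70 and 2.84 TPM in putamen, medulla and cortex, and Krt80 at 1.00, 0.89 and 9.52 TPM. Of the sheath keratins, Krt25 was at 5.90, 3.69 and 0.33 TPM and Krt73 at 0.40, 0.36 and 1.66 TPM, and of the basal keratins Krt15 was at 2.67, 0.40 and 0.12 TPM. Krt5 did not exceed 0.02 TPM in any region and Krt14 did not exceed 0.20 TPM, so the epidermal pair was near 0 where Krt1 and Krt10 were not.

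The promoters of Krt20 and Krt12, which had the highest levels of keratins in putamen and cortex, are shown for comparison with those of the hair genes (chr11:99438154-99438403 and chr11:99422260-99422509, minus strand, RefSeq GRCm38.p6, motif letters in capitals). Each holds a sense TATAAA that begins 29 bases before the start, and Krt20 also holds AGATAA on the other strand.
Krt20 promoter: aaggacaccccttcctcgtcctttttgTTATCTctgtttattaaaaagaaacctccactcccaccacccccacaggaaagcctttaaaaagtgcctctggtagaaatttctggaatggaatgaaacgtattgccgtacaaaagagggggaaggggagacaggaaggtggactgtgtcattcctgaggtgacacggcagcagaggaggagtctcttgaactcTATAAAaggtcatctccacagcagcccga
Krt12 promoter: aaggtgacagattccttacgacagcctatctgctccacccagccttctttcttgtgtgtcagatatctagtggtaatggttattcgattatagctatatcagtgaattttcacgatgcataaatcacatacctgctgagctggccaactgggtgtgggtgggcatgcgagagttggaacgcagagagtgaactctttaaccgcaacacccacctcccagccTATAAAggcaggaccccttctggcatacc

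The value of Krt12 is uncertain, because 758 of its 1803 stretches of 50 bases also occur in A830036E02Rik, which overlaps it on the other strand. For Krt8, 29.7% of its stretches occur elsewhere, mostly in the pseudogene Krt8-ps, and Krt10 shares 2.4%.

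Over the 3 regions against the 16 primary B and CD4 T libraries, 9 of the 32 keratins that passed the filter on low counts were higher and 0 were lower (edgeR's quasi-likelihood test, Benjamini-Hochberg adjusted p under 0.05). The background was 68.7% called among all 15808 genes tested, 36.8% higher and 31.9% lower, and limma called 13 keratins, all higher, and DESeq2 8, of which Krt83 was lower in brain. The members' share cannot be read against that background, because the keratins tested were set by the filter: without the LPS, LPS+a-d-dextran and aBCD180 cultures, 14 keratins were tested in place of 32 and 10 of them were higher, with 36.9% higher among 15715 genes. The gene gained was Krt73, with a log2 fold change of 6.63 and an adjusted p of 1.04e-05 by edgeR. That call describes these libraries only, since the cultures were left out for their keratin values. The 9 genes were Krt1, Krt8, Krt9, Krt10, Krt12, Krt20, Krt77, Krt80 and Krt222. For 8 of these, all but Krt80, the lowest brain region was above the highest lymphocyte library. Krt20 averaged 23.1 ± 35.7 TPM (SD, n = 3) against 0.0088 ± 0.022 TPM (n = 16), with a log2 fold change of 10.39 ± 1.03 (SE) and an adjusted p of 3.92e-08 by edgeR. Krt12 averaged 15.9 ± 17.5 TPM against 0.0006 ± 0.0025 TPM, with an adjusted p of 5.57e-11. Krt10, which lymphocytes also express, averaged 19.57 ± 21.03 TPM against 2.41 ± 0.67 TPM, a log2 fold change of 2.68 ± 0.39 with an adjusted p of 5.06e-06. Krt80 lost its call when cortex was left out, and of the 23 genes tested that did not pass, 23 were above 0 in all 3 of the B-cell cultures with the skin set.

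Genes listed as markers of several other cell types were also higher in brain, and their sums differed between regions as some keratins did. All genes tested were called higher for choroid plexus (5 of 5), fibroblast (5 of 5), meninges (4 of 4, of which Dcn and Lum are also in the fibroblast list), skeletal muscle (4 of 4) and Merkel cell (3 of 3) markers, as were 3 of 4 ependymal genes, while 0 of 4 genes of other epithelia were called. Among all 15808 genes tested, 36.8% were called higher. The Merkel cell list summed to 1.36 TPM in back skin, below every brain region. Its genes are not read here as a sign of Merkel cells in brain.

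The ependymal genes summed to 99.62 TPM in putamen, 33.70 TPM in medulla and 7.28 TPM in cortex. The choroid plexus genes summed to 37.30, 27.64 and 19.28 TPM, the Merkel cell genes to 79.48, 50.77 and 36.60 TPM, and the 4 genes of other epithelia to 38.61, 4.27 and 2.18 TPM, of which Epcam was at 29.07, 2.20 and 0.26 TPM. These 4 sums had the order of Krt8, Krt18, Krt19, Krt25 and Krt15, highest in putamen and lowest in cortex. The skeletal muscle genes summed to 148.67, 90.53 and 113.77 TPM, in the order of Krt10, Krt9 and Krt77. Krt20 was also highest in putamen, but its 90 counts in medulla and 98 in cortex were too close to order these regions. Their median was 4.23% of the skin level in putamen. Krt10 was at 5.04% of its skin level there, the highest of the 34 keratins with at least 100 TPM in skin, whose median was 0%. The meninges genes summed to 20.62, 40.19 and 22.36 TPM, in the order of Krt1 and Krt222, and the fibroblast genes to 42.15, 60.38 and 36.47 TPM. No gene of these lists was at 0 in putamen. The order of Krt12, Krt80 and Krt73, highest in cortex and lowest in medulla, was that of none of these sums. Few orders of 3 regions are possible, so genes and sums can share an order without any link, and none is read from it here. Whether cells of these types were present, and their part in the keratin levels, was not tested. The Krtap genes had a median of 0% of skin in all 3 regions, and 0 of 23 tested were called. Medulla still held low levels of part of the skin set. There 34 of the 54 Krtap genes were at 0, against 51 in putamen and 52 in cortex, and they summed to 5.40 TPM. The median of the 34 keratins was 0.00418% of skin in medulla and the r with skin was 0.29, with Krt71 at 0.67 TPM and Krt27 at 0.71 TPM. The source of these counts was not tested.

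Of the cornified envelope and desmosome list, 6 of 15 genes tested were higher in brain and 1 was lower, among them Lor, a cornified envelope protein, at 8.29, 16.16 and 6.77 TPM. Of the other intermediate filament genes 11 of 18 were higher and 3 lower, and of the epidermal regulators 5 of 11 were higher and 1 lower. Of the hair follicle differentiation genes 6 of 13 were higher and 4 lower. Over all 15808 genes tested, 36.8% were higher and 31.9% lower, and the shares of these lists were not tested against that.

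In the CD4+ T cells, Krt17 was detected in follicular cells and not in the other sorted or total cells. Krt17 was at 13.20 TPM in Tfh, 4.03 TPM in Tfh MUT, 3.85 TPM in Tfr and 11.88 TPM in Tfr MUT. It was at 0 in non-Tfh, non-Tfh MUT, CD4+ and CD4+ MUT cells and at 0.34 TPM in ConA-activated cells. The 4 follicular libraries held 1025 Krt17 counts in sum and the 4 others held 0. A count of 0 allows up to 3 counts per library. The mean Krt17 share of counts in the 4 follicular libraries was 117.8 times the mean share at that limit in the 4 others. This is a ratio of means and no lower bound for single libraries, since the follicular counts ran from 103 to 523.

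Krt83, a type II hair shaft keratin, was also highest in Tfh cells. It was at 8.77 TPM in Tfh, 8.18 TPM in Tfh MUT, 2.13 TPM in Tfr and 2.40 TPM in Tfr MUT. In the other cells it was at 1.23 TPM in non-Tfh, 2.78 TPM in non-Tfh MUT, 0.00 TPM in CD4+ and 0.02 TPM in CD4+ MUT, so non-Tfh MUT lay above both Tfr libraries. Its close relatives were much lower: Krt87 was at 0.62, 0.65, 0.14 and 0.59 TPM in Tfh, Tfh MUT, Tfr and Tfr MUT, Krt85 at 0.10, 0.52, 0.21 and 0.21 TPM, and Krt86 did not exceed 0.03 TPM. Krt81, Krt31 and Krt34 were at 0 in all 8 libraries, as were Krt14 and Krt6a, and Krt5 did not exceed 0.02 TPM. Krt83 shares 23.2% of its 50-base stretches with other genes, mostly with Krt86, so the copy to which these reads belong is less certain than for Krt17, which shares 4.0%.

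The contrast of the 4 follicular libraries with the 4 others was chosen after these values were seen, so its tests describe these libraries. In edgeR's quasi-likelihood fit of the 8 libraries, 5 of the 6 keratins that passed the filter were higher and 1 was lower, and 38.3% of all 13064 genes tested were called, 20.7% higher and 17.6% lower. Nothing is read from the keratin count against these shares: the contrast came from these values, and 3 of the 5 held few counts outside the follicular libraries, at 1025 against 0 for Krt17, 71 against 4 for Krt87 and 147 against 24 for Krt18. Krt17 had an adjusted p of 0.00688. Krt83 averaged 5.37 ± 3.60 TPM (SD, n = 4) against 1.01 ± 1.31 TPM (n = 4), with a log2 fold change of 4.64 ± 0.50 (SE) and an adjusted p of 0.00155 by edgeR. Krt87 had a log2 fold change of 5.39 ± 0.97 with an adjusted p of 0.0127 by edgeR, and Krt18, at 0.46, 1.13, 1.97 and 1.57 TPM against 0.49, 0.15, 0.02 and 0.00 TPM, one of 4.0 ± 0.76 with 0.0104. Krt10 was slightly lower, by edgeR, at 2.33 ± 0.37 against 3.22 ± 0.27 TPM, a log2 change of -0.71 ± 0.21 with an adjusted p of 0.0431. Krt17 and Krt83 kept their calls whichever library was left out. This is no independent support, since the contrast was chosen after their values were seen. Krt10 lost its call in 7 of 8 such fits, Krt222 in 5, Krt18 in 2 (non-Tfh MUT or CD4+ MUT) and Krt87 in 2 (non-Tfh or non-Tfh MUT).

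Krt222 had the order of the B-cell gene Cd79a over these T-cell libraries, but not its scale against B cells. Krt222 was at 4.84 TPM in Tfh, 12.74 TPM in Tfh MUT, 9.08 TPM in Tfr and 3.45 TPM in Tfr MUT, and between 1.54 and 2.64 TPM in the other 4. The B-cell gene Cd79a was at 46.32, 234.35, 171.12 and 41.28 TPM in those follicular libraries and between 34.43 and 40.53 TPM in the others. Splenic B cells had Cd79a at 3543.14 TPM and Krt222 at only 5.84 TPM, and a B-cell part in the Krt222 levels of T cells was not tested. The log2 fold change of Krt222 was 1.64 ± 0.41 with an adjusted p of 0.0256 by edgeR over all 8 libraries. It was 0.85 without Tfh MUT and Tfr, with an adjusted p of 0.00089 by edgeR in that smaller fit. Krt17 did not share that order, since it was highest in Tfh and Tfr MUT, and no keratin was lost from the calls without those libraries. Of the epidermal regulators 1 of 8 tested was higher and 2 lower, and over all 13064 genes 20.7% were higher and 17.6% lower. The higher gene was Grhl1, a regulator of desmosome genes, at 18.46 ± 3.99 against 3.77 ± 3.54 TPM (log2 2.88 ± 0.30, adjusted p 0.0014 by edgeR). Of the cornified envelope and desmosome genes 3 of 7 were higher: Tchh, the desmosome anchor Dsp at 1.15 ± 0.63 against 0.14 ± 0.18 TPM, and Perp at 2.64 ± 1.31 against 0.21 ± 0.28 TPM. The epithelial adhesion gene Epcam was at 7.21, 5.05, 30.99 and 38.92 TPM in Tfh, Tfh MUT, Tfr and Tfr MUT and at most 1.23 TPM in the others. It was the 1 gene called among the 4 of its list: Cdh1 was at 0.28 ± 0.28 against 0.40 ± 0.30 TPM, Elf3 at 6.08 ± 4.86 against 1.79 ± 0.51 TPM and Cldn4 at 0.04 ± 0.05 against 0.42 ± 0.42 TPM.

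**Figure D5:**
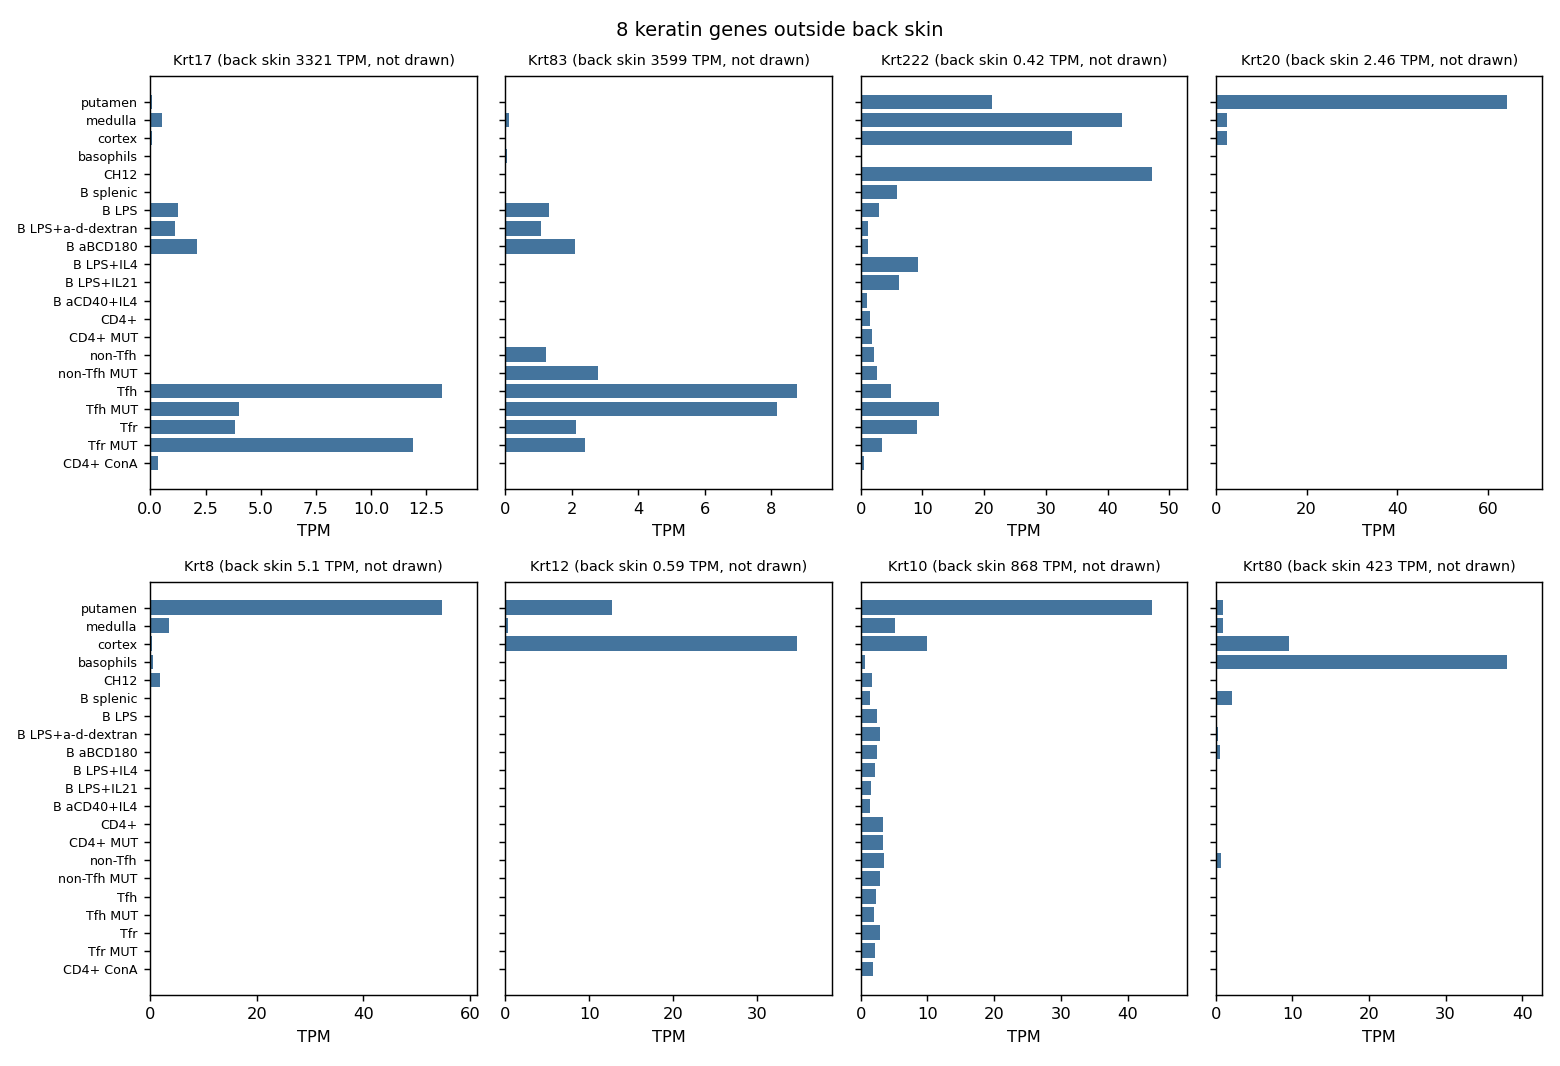
TPM of 8 keratin genes in the 21 libraries other than back skin, as bars from 0 with a scale for each gene. Krt17 is high in the 4 follicular T-cell libraries (3.85 to 13.20 TPM), Krt20 and Krt8 in putamen (64.24 and 54.76 TPM), Krt12 in cortex (34.80 TPM), Krt80 in basophils (38.08 TPM) and Krt222 in CH12 (47.22 TPM).

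Krt222, a keratin-like gene at the edge of the type I cluster, was near 0 in skin and high in CH12 and brain. It was at 47.22 TPM in CH12, 42.37 TPM in medulla, 34.21 TPM in cortex and 21.28 TPM in putamen, against 0.42 TPM in back skin and 0 in basophils. Among primary B cells it was at 9.30 TPM with LPS+IL4, 6.24 TPM with LPS+IL21, 5.84 TPM in splenic B cells, 2.94 TPM with LPS, 1.22 TPM with aBCD180, 1.18 TPM with LPS+a-d-dextran and 1.08 TPM with aCD40+IL4. The unstimulated splenic B cells lay within the range of the activated cultures. Its neighbour Smarce1, a chromatin remodelling subunit, was between 43.30 and 116.05 TPM in every library and did not share this pattern.

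Krt80, a type II keratin known from the edges of epithelial cells, was at 38.08 TPM in basophils, the highest level of any keratin there. Splenic B cells had 2.16 TPM of Krt80 and the 6 activated B cultures 0.52 TPM or less. Basophils, which had the granule gene Mcpt8 at 12997.19 TPM, also had Krt19 at 1.64 TPM, Krt7 at 1.58 TPM, Krt18 at 1.22 TPM, Krt86 at 0.65 TPM and Krt8 at 0.60 TPM. Of the 4 genes of other epithelia, Cdh1 was at 355.62 TPM there, while Epcam was at 0.78 TPM, Elf3 at 0.12 TPM and Cldn4 at 0.03 TPM. Of the 26 cornified envelope and desmosome genes, 6 had at least 1 TPM, the highest being Tgm1 at 68.40 TPM, and 11 were at 0, with a median of 0.02 TPM. All 54 Krtap genes were at 0, and Krt5 and Krt14 were at 0.11 and 0.20 TPM. CH12 had Krt8 at 1.79 TPM, Krt10 at 1.72 TPM and Krt7 at 1.16 TPM beside Krt222.

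None of the remaining planned comparisons called a keratin by edgeR with the filter on low counts, but 1 of them did without it. Between the 7 primary B and 9 CD4 T libraries, 0 of 4 keratins tested passed, against 46.4% of 12437 genes, 0 had an unadjusted p under 0.05, and DESeq2 and limma called 0 and 0. With no filter on low counts, 21 of 55 keratins were called, all higher in B cells, against 16.6% of 19956 genes. These included Krt71, Krt25 and Krt27 and the shaft gene Krt34, and 19 of the 21 were at 0 counts in the 4 B libraries other than LPS, LPS+a-d-dextran and aBCD180. When the 3 B-cell cultures with skin transcripts were left out, Krt83 passed, lower in B cells, with a log2 fold change of -10.12 and an adjusted p of 0.0244 by edgeR. Those cultures were left out for their keratin values, and Krt83 then had 0 counts in B cells against 889 in T cells. Total CD4+ and CD4+ MUT cells had 0.00 and 0.02 TPM, so this call is not read as a difference of lineage. Between 7 activated and 3 unstimulated lymphocyte libraries, 0 of 26 keratins passed against 14.1% of 13422 genes (8.1% higher, 5.99% lower). The 0 of 26 cannot be read against that background, because the keratins tested were set by the filter. Without the 3 B-cell cultures with skin transcripts, 3 keratins were tested and 0 passed, against 0.21% of 13810 genes. In the full fit 1 keratin had an unadjusted p under 0.05, DESeq2 called 1, Krt17, and limma called 0. Krt17 was at 0 in the LPS+IL4, LPS+IL21 and aCD40+IL4 cultures. Between the 4 MUT and 4 unmarked T-cell libraries, paired by population, 0 of 6 keratins passed and 0% of 13064 genes did. At an unadjusted p under 0.05 there were 192 genes and 0 keratins, and DESeq2 called 2 genes and limma 0. Krt17 was lower in Tfh MUT than in Tfh (4.03 against 13.20 TPM) and higher in Tfr MUT than in Tfr (11.88 against 3.85 TPM), which averaged to a log2 fold change of 0.03 ± 1.06 (SE).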

How the data were processed

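Poly(A) RNA libraries were sequenced for 50 cycles, per the labels' protocols. CASAVA 1.8.2, STAR, RSEM, bedtools and mm10 are named in the submitters' processing notes. Per the file headers, the authors deposited expected counts, TPM and FPKM per gene from RSEM. FPKM was not used. The deposited TPM was used for levels, and the deposited expected counts were rounded to whole numbers for tests. Depth was 30805597 to 147925523 counts.

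Tests used edgeR 4.0.16 (filterByExpr, TMM, quasi-likelihood, Benjamini-Hochberg over all genes tested, threshold 0.05), with DESeq2 1.42.0 and limma 3.58.1 on log2(TPM + 1) as alternatives, in R 4.3.3. The edgeR steps were tested on simulated data. Intervals of single genes are exact Poisson (95%), and a count of 0 allows 3 counts. Intervals of ratios (95%) are a normal approximation on the log scale from the counts of both genes. Other work used Python 3.11.15. Annotation was GENCODE M21 and promoters RefSeq GRCm38.p6. Every keratin with at least 1 TPM in some library was named. Of the other lists, the genes lacking a row (Flg, Trac and Krt3) were not analysed here. The members and lists were chosen with earlier results of these data known. The MUT comparison paired the libraries by population, and no other comparison was paired.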

Additional observations from a re-analysis of the deposited data

Results flagged for a closer look

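Krt80 in splenic B cells stood apart from the other primary B libraries, at 2.16 TPM against 0.52 TPM or less in the 6 activated cultures. The gap to the next library was larger than Dixon's 95% critical value for 7 samples. In all, 22 groups were tested in this way, and chance alone flags about 1 group in 20. Splenic B cells were also the only unstimulated library of the 7, so these were not like samples. The flag rests on 1 library, and the reason was not tested.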

How the results depend on the processing

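Keratins held 7.43% of back skin by expected counts in place of TPM, and 40 of them met the size rule whichever other library was left out, with 541 to 578 genes in all. The number detected outside skin was 46 at 0.1 TPM and 17 without the LPS, LPS+a-d-dextran and aBCD180 cultures. In B against T cells, 21 keratins were called with no filter on low counts, 1 keratin and 3136 genes without those cultures, and 5038 to 6648 genes with single libraries left out. In activated against unstimulated cells, DESeq2 called 3729 genes and 1 keratin, and edgeR called 1891 genes, 29 without those cultures and 274 to 2487 with single libraries left out. LPS, splenic B, aBCD180, CD4+, CD4+ MUT and ConA each moved that count by over 1.5 times. DESeq2 called 2 genes for MUT, and leaving out single libraries gave 0 to 29 genes, above 0 without Tfh or Tfh MUT. In follicular against other T cells, leaving out single libraries gave 2163 to 7049 genes and 2 to 7 keratins, and non-Tfh, non-Tfh MUT, CD4+ and CD4+ MUT moved the first count by over 1.5 times. In brain against lymphocytes it gave 9814 to 10943 genes and 9 to 10 keratins. The cause of these shifts was not tested. No direction of a called result was reversed. The MUT comparison was paired by population, and without that pairing it also called 0 genes and 0 keratins. For the other comparisons the labels carry no numbers that pair libraries. With no replicates, the skin, basophil and CH12 levels have counting error only, and values under about 0.1 TPM rest on few reads.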
